A study of Homo sapiens with 6 samples.

Results

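The genes described here are 29 named transcriptional targets of p53, taken as a list of symbols. All 29 were found among the 23619 gene symbols of each library, and 27 were tested, since 3 or more of the 6 libraries held them at 1 FPKM or above. FPKM counts fragments scaled to transcript length and library size, so levels can be compared between genes. The remaining 2, TNFRSF10C and SPATA18, lay under this minimum in all 6 libraries.

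The libraries came from HG3, which the labels call a lymphoblastoid cell line and the series title places in chronic lymphocytic leukaemia, a cancer of B cells. Each of 3 pool numbers, 17, 18 and 28, had 1 fludarabine-resistant library and 1 control library of total RNA. The comparison set resistant cells against their parental cells. Beyond the shared number and a design of pairs, nothing states how resistant and control pools were matched. The pools belong to a transposon mutagenesis study, in which a mobile element inserts itself at many places in the genome, so a pool may hold cells with different insertions. The sources used here do not give the drug dose, the length of selection, whether fludarabine was present when RNA was taken, or the insertions in each pool. In RNA from a mixture of cells, fewer cells that express a gene and less RNA per cell cannot be told apart. All libraries are of 1 cell line, and nothing states that the pools were separate before selection, so p-values measure only the spread between these libraries.

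p53 is a transcription factor that is kept low by the ubiquitin ligase MDM2 and is stabilised after DNA damage. It then binds response elements made of a pair of similar decamers and raises genes that halt the cell cycle, repair DNA, limit oxidative damage or lead to apoptosis, among them genes such as MDM2 and PPM1D that in turn restrain p53. Fludarabine is a purine nucleoside analogue that blocks DNA synthesis once it has been phosphorylated in the cell, and it is used to treat chronic lymphocytic leukaemia.

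Sequences close to the p53 response element were looked for in the promoters of these genes. Promoter windows from RefSeq (GRCh38.p14, 250 bases before to 50 bases after a transcript start) were matched for 23 of the 29 genes, C12orf5 under its newer symbol TIGAR, and not for GADD45A, PHLDA3, TNFRSF10B, TNFRSF10C, TP53INP1 and FBXO22. Each was searched for the p53 response element, 2 decamers with no spacer, each with its CNNG core intact and with at most 3 mismatches over the 20 bases. The consensus reads the same on both strands, so 1 search covers both, and the limit of 3 was chosen after the matches were seen. A match was found in 8 of the 23 genes, 34.8%, and in 1.37% of all 27305 genes with a window. Since the genes were listed as p53 targets, these shares are a description and not a test. The matches are the sites closest to the consensus in this group. They are shown with up to 20 bases on each side and the site in capitals, 5′ to 3′ on the strand of the gene.
DDB2, chr11:47214949-47215008, plus strand, 1 mismatch: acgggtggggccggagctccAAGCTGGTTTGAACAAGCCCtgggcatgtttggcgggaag
MDM2, chr12:68808903-68808962, plus strand, 2 mismatches: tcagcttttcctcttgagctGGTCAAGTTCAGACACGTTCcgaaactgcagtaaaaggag
FAS, chr10:88991289-88991348, plus strand, 2 mismatches: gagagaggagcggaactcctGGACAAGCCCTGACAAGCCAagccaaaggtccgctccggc
AEN, chr15:88621286-88621345, plus strand, 2 mismatches: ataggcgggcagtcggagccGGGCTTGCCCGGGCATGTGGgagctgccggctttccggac
SESN1, chr6:109008998-109009057, minus strand, 3 mismatches: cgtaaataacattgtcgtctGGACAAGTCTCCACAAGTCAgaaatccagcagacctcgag
RPS27L, chr15:63157507-63157566, minus strand, 3 mismatches: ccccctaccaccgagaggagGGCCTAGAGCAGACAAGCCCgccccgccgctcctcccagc
FDXR, chr17:74872976-74873035, minus strand, 3 mismatches: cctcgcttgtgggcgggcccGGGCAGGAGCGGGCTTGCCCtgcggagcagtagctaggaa
GDF15, chr19:18386166-18386207, plus strand, 3 mismatches: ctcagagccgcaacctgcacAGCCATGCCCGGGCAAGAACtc
Where a gene had several windows, as MDM2 (4), FAS (3), SESN1 (3), DDB2 (2) and FDXR (2) did, the window closest to the consensus was taken, here and for all genes. A match describes letters only, and the other 15 genes have no such letters in these windows. The coordinates are those of GRCh38.p14, and the submitters' processing notes name hg19 for the deposited values.

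B cell markers were at high levels in every library. The 8 genes summed to 2030 to 2950 FPKM in resistant and 2120 to 2630 FPKM in control libraries. Markers of T cells (6 genes) summed to 0.406 to 0.624 FPKM in resistant and 0.312 to 0.482 FPKM in control libraries, those of NK cells (5 genes) to 0.507 to 1.89 FPKM in resistant and 0.944 to 1.59 FPKM in control libraries. Of 5 erythroid markers HBB, HBA1 and HBA2 were listed at 0 in all 6 libraries, and the sum was at most 0.102 FPKM in resistant and 0.115 FPKM in control libraries. The 6 myeloid markers summed to 2.41 to 8.22 FPKM in resistant and 2.38 to 3.36 FPKM in control libraries, with FCGR3A at 0 throughout and ITGAM at 6.05 FPKM in resistant 18. Resistant 18 also stood apart in other ways. It had the fewest genes at 1 FPKM or more (10936, against 11159 to 11331 in the other libraries), and when limma weighted libraries by their fit it received a weight of 0.162, against 1.03 to 1.93 for the others. Many of the results are therefore also given without it.

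None of the 27 tested p53 targets passed the test between resistant and control libraries. With limma on log2(FPKM + 1) and Benjamini-Hochberg adjustment over 11307 genes, 0 of 27 had an adjusted p under 0.05, and their adjusted p ran from 0.24 to 0.994. Over all genes 4 passed, 0.0354%. An unadjusted p under 0.05 was reached by 3 of the 27 (ZMAT3, PHLDA3 and C12orf5), 11.1%, against 13.1% of all genes. Without resistant 18 it was reached by 5 (ZMAT3, TP53I3, PHLDA3, GADD45A and CCNG1), 18.5%, against 23.3% of all genes, and 0 passed the adjusted threshold. The median log2 difference of the 27 was -0.03, beside 0.01 for all genes tested, and it was -0.03 as well with TNFRSF10C and SPATA18 included. The median size of the difference regardless of sign was 0.18 for the 27 and 0.22 for all genes. On this scale a difference of 1 is a doubling of FPKM + 1, which understates the change of genes with low FPKM.

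**Figure D1:**
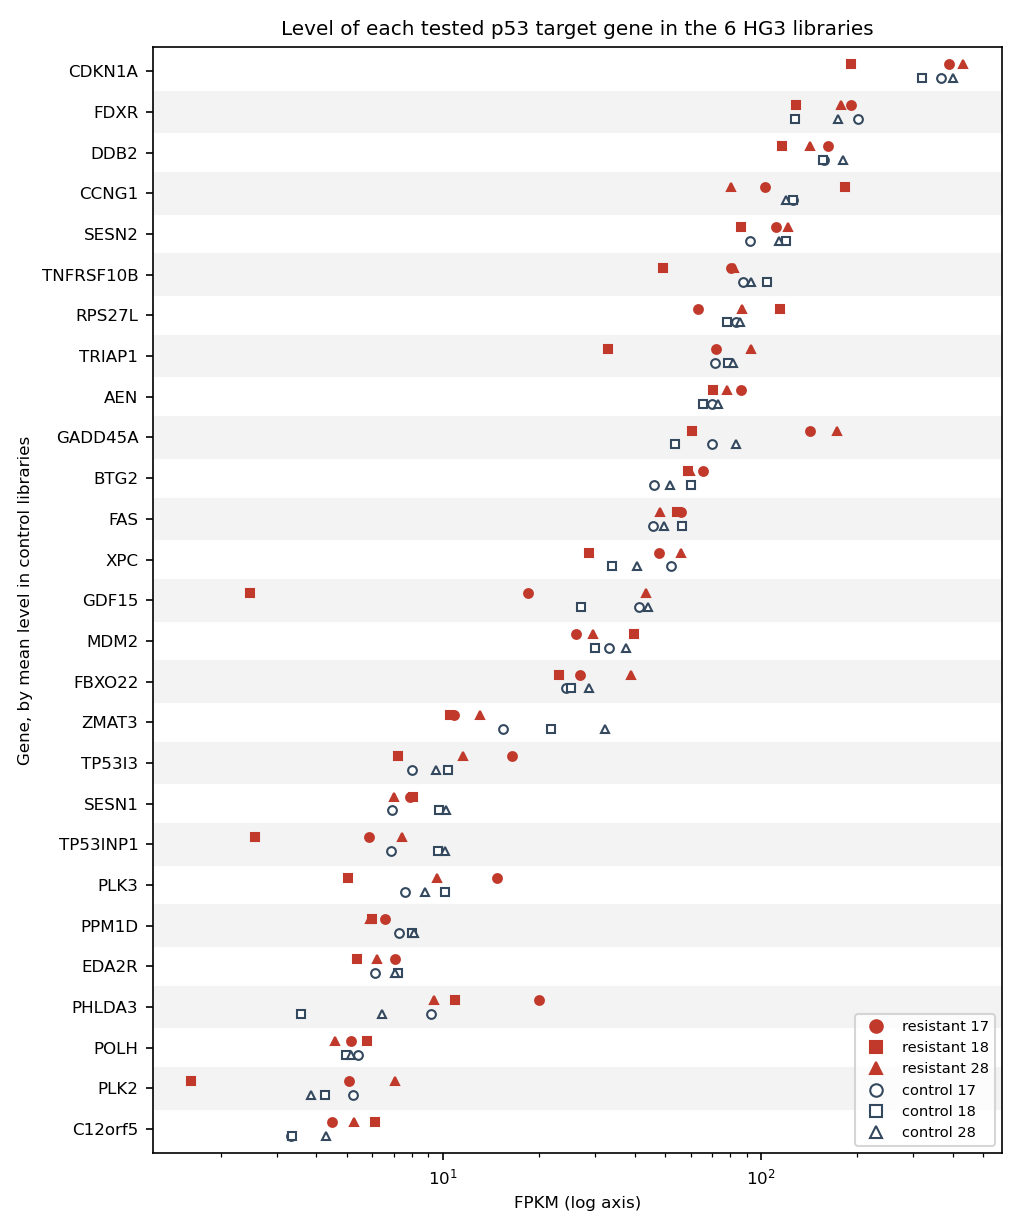
FPKM on a log axis of the 27 tested p53 target genes in each library, resistant libraries as filled red symbols above control libraries as open symbols, with 1 symbol shape per pool. CDKN1A is at the top with 321 to 403 FPKM in controls and C12orf5 at the bottom with 3.33 to 4.3 FPKM, and resistant 18 (red squares) lies far to the left for GDF15, TP53INP1, PLK2 and TRIAP1.

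Among levels in control libraries, CDKN1A was the highest, at 364 ± 41.2 FPKM (SD, n = 3). FDXR, a mitochondrial reductase, had 168 ± 37.6 FPKM and DDB2, a DNA damage sensor, 165 ± 14.2 FPKM, and their ranges overlapped. CCNG1 followed at 124 ± 3.37 FPKM. At the low end PLK2 had 4.44 ± 0.712 FPKM and C12orf5 3.66 ± 0.553 FPKM, and their control ranges overlapped too. TNFRSF10C, which encodes a decoy receptor for the death ligand TRAIL that lacks a death domain, had 0.167, 0 and 0.0465 FPKM in resistant 17, 18 and 28, against 0.254, 0.0558 and 0 FPKM in controls 17, 18 and 28. SPATA18, a mitochondrial quality control gene, was listed at 0 in 4 libraries and had 0.0122 FPKM in resistant 28 and 0.0128 FPKM in control 28.

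MDM2 and PPM1D feed back on p53. MDM2, its ubiquitin ligase, had 26.2, 39.9 and 29.7 FPKM in resistant 17, 18 and 28, against 33.2, 30 and 37.5 FPKM in controls 17, 18 and 28. It was below control in pools 17 and 28 and above it in pool 18, with differences of -0.33 (pool 17), 0.40 (pool 18) and -0.33 (pool 28), and the groups overlapped. Over the pools the log2 difference was -0.09 (limma, SE 0.20, adjusted p = 0.89), and it was -0.25 without resistant 18 (adjusted p = 0.339). PPM1D, a phosphatase that dampens the damage signal to p53, had 6.57, 5.98 and 5.88 FPKM in resistant 17, 18 and 28, against 7.29, 8.01 and 8.13 FPKM in controls 17, 18 and 28. All 3 resistant libraries were below all 3 controls, by a small amount: the means were 6.14 ± 0.375 FPKM in resistant and 7.81 ± 0.453 FPKM in control libraries (SD, n = 3 each), and the log2 difference was -0.30 (limma, SE 0.14, adjusted p = 0.415).

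Among the genes that hold the cell cycle, CDKN1A and GADD45A both had lower differences in pool 18 than in pools 17 and 28. CDKN1A, which encodes the cyclin-dependent kinase inhibitor p21, had 390.4, 192 and 433 FPKM in resistant 17, 18 and 28, against 369, 321 and 403 FPKM in controls 17, 18 and 28. Resistant 18 was the lowest of all libraries, and resistant 17 and resistant 28 lay within or above the controls. Its log2 difference was -0.18 (limma, SE 0.33, adjusted p = 0.851), and it had the other sign, 0.18, without resistant 18 (adjusted p = 0.534). GADD45A, a stress protein that binds p21 and PCNA, had 143, 60.5 and 174 FPKM in resistant 17, 18 and 28, against 70.2, 53.6 and 83.3 FPKM in controls 17, 18 and 28. Resistant 17 and resistant 28 were above every control, while resistant 18 lay among the controls. Its log2 difference was 0.75 (limma, SE 0.40, adjusted p = 0.467) over the pools and 1.20 without resistant 18 (adjusted p = 0.0967). It was 0.45 without resistant 28 (adjusted p = 0.654). With libraries weighted GADD45A passed (limma, adjusted p = 0.048), as 1 of 301 among all 11307 genes, against 4 unweighted. The weight of resistant 18 was then 0.162.

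CCNG1, an unusual cyclin that works with a phosphatase on MDM2, had 103, 184 and 80.6 FPKM in resistant 17, 18 and 28, against 126, 126 and 120.2 FPKM in controls 17, 18 and 28. Controls differed little, whereas resistant 18 was the highest of the 6 libraries and resistant 28 the lowest. PLK2, a stress-responsive polo-like kinase, had 5.07, 1.62 and 7.07 FPKM in resistant 17, 18 and 28, against 5.23, 4.25 and 3.84 FPKM in controls 17, 18 and 28. Here resistant 18 was lowest and resistant 28 highest. The related kinase gene PLK3 had 14.8, 5.02 and 9.55 FPKM in resistant 17, 18 and 28, against 7.57, 10.1 and 8.76 FPKM in controls 17, 18 and 28, with resistant 17 highest and resistant 18 lowest. Over the pools the differences of these genes were -0.10 (limma, SE 0.30, adjusted p = 0.917) for CCNG1, -0.10 for PLK2 (SE 0.40, adjusted p = 0.941) and 0.04 for PLK3 (SE 0.34, adjusted p = 0.979). Without resistant 18 they were -0.44, 0.37 and 0.40, so PLK2 changed sign. BTG2, an antiproliferative regulator of mRNA decay, had 59 to 65.6 FPKM in resistant and 45.9 to 60.1 FPKM in control libraries, and the groups overlapped.

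**Figure D2:**
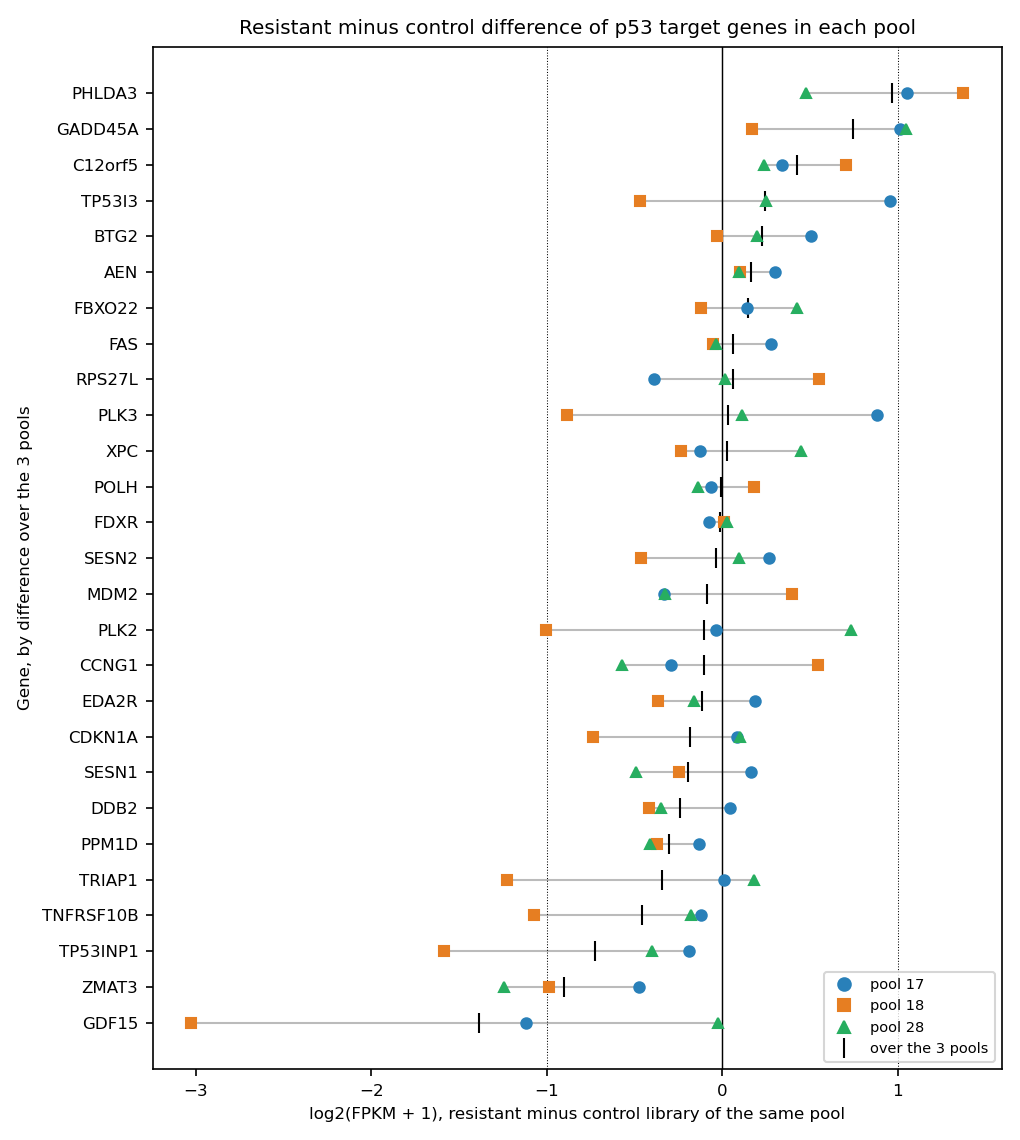
Difference in log2(FPKM + 1) between the resistant and the control library of each pool for the 27 tested p53 target genes, with 1 coloured symbol per pool and a black tick for the difference over the 3 pools. Dotted lines mark a difference of 1 in either direction. Pool 18 (orange squares) holds the lowest value for GDF15 (-3.02), TP53INP1 (-1.58), TRIAP1 (-1.23) and TNFRSF10B (-1.07), and also the highest for PHLDA3 (1.38).

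Of the tested receptor genes, TNFRSF10B was lower in each resistant library than in any control, while FAS and EDA2R overlapped. TNFRSF10B, the TRAIL receptor DR5, had 80.7, 49.1 and 82.1 FPKM in resistant 17, 18 and 28, against 87.8, 104 and 93 FPKM in controls 17, 18 and 28. Every resistant library was below every control, most of all resistant 18. The log2 difference was -0.46 (limma, SE 0.24, adjusted p = 0.455) and -0.22 without resistant 18 (adjusted p = 0.371). FAS, the receptor of Fas ligand, had 48.2 to 55.9 FPKM in resistant and 45.8 to 56.6 FPKM in control libraries (log2 difference 0.06, adjusted p = 0.903), and EDA2R, a receptor of ectodysplasin, had 5.38 to 7.06 FPKM in resistant and 6.09 to 7.21 FPKM in control libraries (-0.11, adjusted p = 0.807).

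Of the other genes tied to cell death and survival, ZMAT3 and PHLDA3 had the smallest unadjusted p of all members and lay in opposite directions. ZMAT3, an RNA-binding zinc finger protein that acts in p53's tumour suppression, had 10.8, 10.5 and 13.1 FPKM in resistant 17, 18 and 28, against 15.4, 21.8 and 32.3 FPKM in controls 17, 18 and 28. Resistant libraries were close together and all below the controls, which were more spread out. The means were 11.5 ± 1.39 FPKM in resistant and 23.2 ± 8.53 FPKM in control libraries (SD, n = 3 each), 2.02-fold lower in the resistant group (log2 difference -0.90, limma, SE 0.27, adjusted p = 0.24). PHLDA3, which competes with the kinase AKT for membrane lipids and so limits its activity, had 20.1, 10.9 and 9.39 FPKM in resistant 17, 18 and 28, against 9.15, 3.58 and 6.45 FPKM in controls 17, 18 and 28. All resistant libraries were above all controls, though resistant 28 only just above control 17. The means were 13.4 ± 5.79 FPKM in resistant and 6.39 ± 2.78 FPKM in control libraries (SD, n = 3 each), a 2.1-fold difference (log2 difference 0.97, limma, SE 0.37, adjusted p = 0.335). The annotation of GENCODE v29 places 22.2% of PHLDA3's exon bases in another gene on the same strand, so its reads may be shared.

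TP53INP1, a stress protein active in autophagy and cell death, had 5.87, 2.56 and 7.4 FPKM in resistant 17, 18 and 28, against 6.84, 9.67 and 10.1 FPKM in controls 17, 18 and 28. Each resistant library was below the control of the same pool number, and resistant 18 was the lowest of the 6, but the groups overlapped. Its log2 difference was -0.73 (limma, SE 0.33, adjusted p = 0.404), and -0.36 without resistant 18. TRIAP1, a small mitochondrial protein that protects from apoptosis, had 72.3, 33 and 92.7 FPKM in resistant 17, 18 and 28, against 71.9, 78.7 and 81.6 FPKM in controls 17, 18 and 28. Only resistant 18 stood outside the range of the others on the low side, and resistant 28 was the highest library. The difference was -0.34 (limma, SE 0.36, adjusted p = 0.725) and 0.08 without resistant 18. TP53I3, a quinone oxidoreductase linked to oxidative stress in apoptosis, had 16.5, 7.21 and 11.5 FPKM in resistant 17, 18 and 28, against 7.99, 10.4 and 9.52 FPKM in controls 17, 18 and 28. Resistant 17 was the highest library and resistant 18 the lowest (log2 difference 0.25, limma, SE 0.28, adjusted p = 0.747), and without resistant 18 the difference was 0.53 (adjusted p = 0.177). AEN, a nuclease that takes part in apoptosis, had 70.6 to 86.5 FPKM in resistant and 65.8 to 73.1 FPKM in control libraries, with a positive difference in each pool (0.17, adjusted p = 0.699) and overlapping groups.

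**Figure D3:**
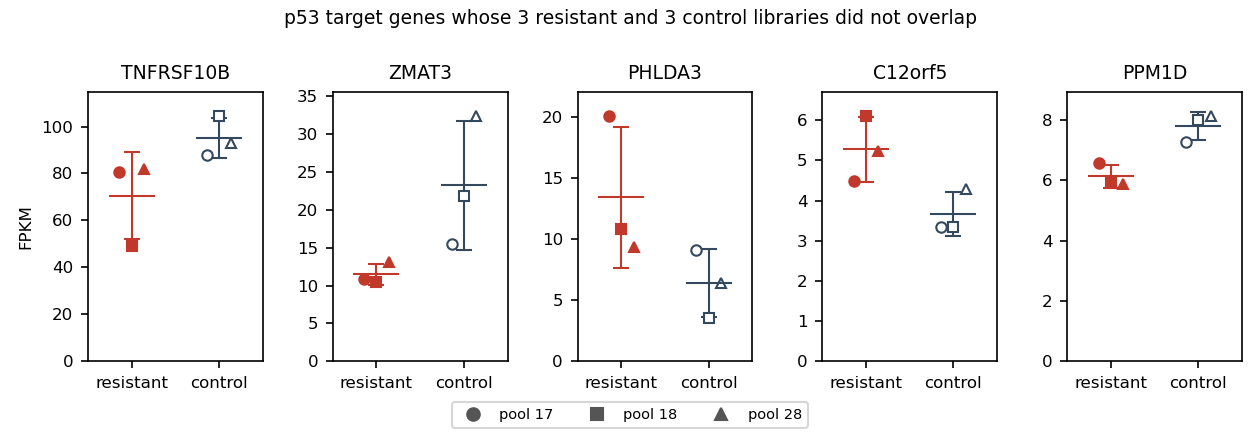
FPKM in each library of the 5 p53 target genes whose resistant and control libraries did not overlap, with horizontal bars for the mean and error bars for the SD of 3 libraries. Resistant libraries are below controls for TNFRSF10B, ZMAT3 and PPM1D and above them for PHLDA3 and C12orf5, and 0 of the 5 passed the adjusted threshold.

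GDF15 had the widest spread of differences between pools among the members. This secreted cytokine of the TGF-beta family, which also responds to other kinds of stress, had 18.5, 2.47 and 43.3 FPKM in resistant 17, 18 and 28, against 41.4, 27.2 and 44.1 FPKM in controls 17, 18 and 28. Resistant 18 was far below every other library, resistant 17 was the next lowest, and resistant 28 was level with control 28. The log2 difference was -1.39 (limma, SE 0.83, adjusted p = 0.513) over the pools and -0.36 without resistant 18 (adjusted p = 0.578). It was -2.20 without resistant 28 (adjusted p = 0.369) and -0.49 with libraries weighted (adjusted p = 0.523). C12orf5 encodes TIGAR, a phosphatase that lowers glycolytic flux and helps limit oxidative damage. It had 4.49, 6.1 and 5.24 FPKM in resistant 17, 18 and 28, against 3.33, 3.35 and 4.3 FPKM in controls 17, 18 and 28. Every resistant library was above every control, and the log2 difference was 0.43 (limma, SE 0.17, adjusted p = 0.36). In GENCODE v29, 45.3% of its exon bases also belong to another annotated gene on the same strand, so its reads may be shared. The sestrin genes, whose proteins restrain mTORC signalling under stress, did not stand apart: SESN1 had 7.0 to 8.05 FPKM in resistant and 6.93 to 10.2 FPKM in control libraries, and SESN2 86.3 to 122 FPKM in resistant and 92.5 to 119 FPKM in control libraries (adjusted p = 0.694 and 0.964). FDXR, which feeds electrons to mitochondrial P450 enzymes and iron-sulphur cluster synthesis, had 129 to 192 FPKM in resistant and 128 to 202 FPKM in control libraries, a log2 difference of -0.01 (SE 0.25).

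The repair genes and the remaining members had small differences. XPC and DDB2 encode damage sensors of nucleotide excision repair. XPC had 28.7 to 56 FPKM in resistant and 34 to 52.1 FPKM in control libraries and DDB2 117 to 162 FPKM in resistant and 156 to 181 FPKM in control libraries, with log2 differences of 0.03 and -0.24 (adjusted p = 0.979 and 0.626). Between 8.3% and 16.6% of XPC's exon bases overlap each of 3 genes on the opposite strand, and whether reads were counted by strand is not known here. POLH, a polymerase that copies past damaged bases, had 4.57 to 5.77 FPKM in resistant and 4.96 to 5.41 FPKM in control libraries (-0.01). RPS27L, a ribosomal protein paralogue, had 63.4 to 115 FPKM in resistant and 78.1 to 85.8 FPKM in control libraries, with resistant 17 the lowest and resistant 18 the highest library (0.06). FBXO22, a ubiquitin ligase subunit, had 23.1 to 38.9 FPKM in resistant and 24.4 to 28.7 FPKM in control libraries, with resistant 28 the highest (0.15). In all, the 12 members not described in every library had log2 differences between -0.24 and 0.23 and adjusted p between 0.60 and 0.994.

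The direction of the members was split, and not shared by the pools. A positive difference in all 3 pools was seen for 4 of the 27 (PHLDA3, AEN, C12orf5 and GADD45A), 14.8%, against 18.9% of all genes tested. A negative one in all 3 pools was seen for 5 (TNFRSF10B, ZMAT3, GDF15, TP53INP1 and PPM1D), 18.5%, against 18.7% of all genes. Resistant and control libraries did not overlap for 2 members with higher values in resistant libraries, 7.41%, against 10.1% of all genes. They did not overlap for 3 members with lower values, 11.1%, against 11.1% of all genes. These shares of members are near those of all genes or below them.

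Within single pools, where 1 library stands against 1 and no test is possible, pool 18 held the most members past a difference of 1. In pool 18, 5 of the 27 members were lower in the resistant library by more than 1 on the log2 scale (TNFRSF10B, GDF15, TP53INP1, TRIAP1 and PLK2), 18.5%, against 7.24% of all genes. There 1 was higher by as much (PHLDA3), against 5.41% of all genes. In pool 17, 2 were higher (PHLDA3 and GADD45A), against 2.45% of all genes, and 1 lower (GDF15), against 1.72%. In pool 28, 1 was higher (GADD45A), against 4.06%, and 1 lower (ZMAT3), against 4.02%. GADD45A was just past this size in pools 17 and 28 (1.01 and 1.05), TNFRSF10B (-1.07) and PLK2 (-1.0) just past it in pool 18, and ZMAT3 (-0.99) just short of it there. With a pseudocount of 5, the 5 lower members of pool 18 became 3, and with a pseudocount of 0.1 or median centring they became 6. Shares of all genes were not taken at these settings.

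Resistant 18 was the lowest of the 6 libraries for 14 of the 27 members, 51.9%, against 25.3% of all genes tested. It was the highest for 5 (MDM2, RPS27L, C12orf5, CCNG1 and POLH), 18.5%, against 35.4% of all genes. The median difference of the 27 in pool 18 was -0.25, with 18 lower (66.7%, against 46.4% of all genes) and 9 higher, beside a median of 0.05 for all genes. In pool 17 the members' median was 0.04 and in pool 28 it was 0.03, with 15 higher and 12 lower in each, beside -0.03 and -0.01 for all genes. Whether pool 18 differs from the others could not be tested, since each pool has 1 resistant library.

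Genes that regulate p53 or work with it were examined as a further list of 25 genes, of which 24 were tested and 0 passed (1 had an unadjusted p under 0.05 with a higher value and 3 with a lower one, 16.7% together, against 13.1% of all genes). Without resistant 18 these were 1 and 6, 29.2%, against 23.3% of all genes. MDM4, an inhibitor of p53 related to MDM2, had 6.04 to 6.96 FPKM in resistant and 6.24 to 8.61 FPKM in control libraries (log2 difference -0.13, adjusted p = 0.786). In the list, 6 genes had lower values in all 3 pools, 25.0%, against 18.7% of all genes, and 2 had higher values, 8.33%, against 18.9%. EP300 and CREBBP, acetyltransferases that act as p53 coactivators, were among the 6. EP300 had 2.23, 1.85 and 2.39 FPKM in resistant 17, 18 and 28, against 4.48, 6.05 and 7.95 FPKM in controls 17, 18 and 28 (log2 difference -1.16, limma, SE 0.21, adjusted p = 0.159). CREBBP had 1.37 to 2.11 FPKM in resistant and 3.16 to 5.4 FPKM in control libraries (-0.86, adjusted p = 0.197). HIPK2, a kinase that phosphorylates p53 in apoptosis, had 1.99, 2.42 and 2.86 FPKM in resistant 17, 18 and 28, against 5.11, 5.81 and 9.51 FPKM in controls 17, 18 and 28 (log2 difference -1.16, limma, SE 0.24, adjusted p = 0.179). These last 3 were among the 5 genes of the list (with TP73 and RCHY1, named after their values were seen) whose resistant libraries all lay below the controls, 20.8%, against 11.1% of all genes. The groups nearly touched for TP73 (highest resistant 5.485, lowest control 5.497 FPKM) and RCHY1 (2.941 and 2.991 FPKM). TP73 was also among the 6 lower in all 3 pools, with a difference of only -0.003 in pool 18. CDKN2A, whose locus encodes both the inhibitor p16 and the MDM2 antagonist ARF, had 4.74, 1.96 and 3.1 FPKM in resistant 17, 18 and 28, against 1.03, 2.34 and 1.09 FPKM in controls 17, 18 and 28 (log2 difference 0.76, limma, SE 0.30, adjusted p = 0.357), and the gene's value does not separate these products. An antisense gene on the opposite strand, CDKN2B-AS1, overlaps 10.8% of its exon bases. EP300, CREBBP, HIPK2 and CDKN2A all had low levels, with means over all 6 libraries under 5 FPKM. In control libraries alone the means were 6.16 FPKM for EP300, 6.81 for HIPK2, 4.22 for CREBBP and 1.49 for CDKN2A. Among the 17 regulators with a mean of at least 5 FPKM over all 6 libraries, 0 had an unadjusted p under 0.05, against 1060 of 8297 genes. Low resistant values pull this mean down and helped to leave out EP300 and HIPK2. The count of 0 therefore does not show whether the differences depend on level.

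A further list of 61 p53 targets had 59 in the files and 53 tested, and 0 passed. An unadjusted p under 0.05 was reached by 7 (4 higher and 3 lower), 13.2%, against 13.1% of all genes. Without resistant 18 it was reached by 14 (12 higher and 2 lower), 26.4%, against 23.3%. In all 3 pools 15 of the 53 had lower values, 28.3%, against 18.7% of all genes, and 8 had higher values, 15.1%, against 18.9%. The list's median was 0.00 over the pools, and 0.02, -0.23 and 0.05 in pools 17, 18 and 28, with 36 of the 53 lower in pool 18, 67.9%, against 46.4% of all genes. PLXNB2, a semaphorin receptor, had 23.1, 15.1 and 27.2 FPKM in resistant 17, 18 and 28, against 48.6, 43.2 and 54.4 FPKM in controls 17, 18 and 28, 2.23-fold lower in resistant libraries (log2 difference -1.16, limma, SE 0.24, adjusted p = 0.179). ABHD4, a lipid hydrolase, had 4.55 to 6.8 FPKM in resistant and 8.85 to 12 FPKM in control libraries (-0.81, adjusted p = 0.197). On the other side, TRIM22, an antiviral protein that interferon also raises, had 140.2 to 184 FPKM in resistant and 88.8 to 109 FPKM in control libraries (0.62, adjusted p = 0.256), and the carboxylesterase gene CES2 had 11.3 to 13 FPKM in resistant and 6.91 to 9.2 FPKM in control libraries (0.54, adjusted p = 0.245).

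**Figure D4:**
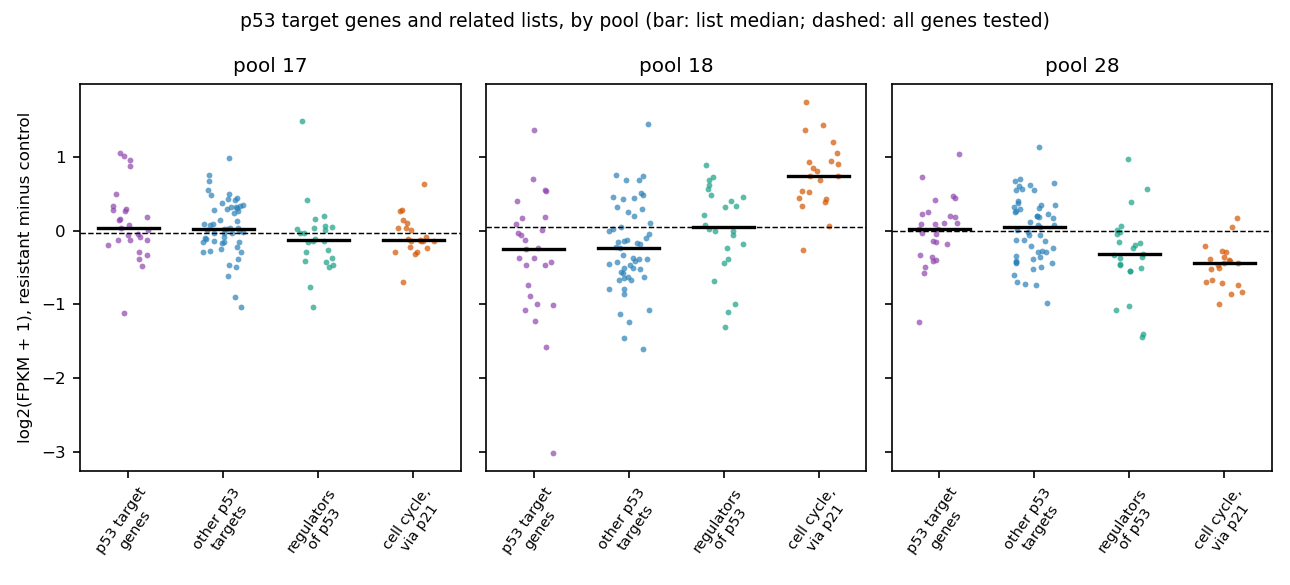
Difference in log2(FPKM + 1) between the resistant and the control library in each pool, 1 panel per pool and 1 point per tested gene, for the 27 p53 target genes, 53 other p53 targets, 24 regulators of p53 and 21 cell cycle genes. Black bars are list medians and the dashed line is the median of all genes tested. In pool 18 the p53 target genes have a median of -0.25 and the cell cycle genes one of 0.75.

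Cell cycle genes that p53 is known to repress through p21 were set beside CDKN1A. Of 21 such genes 0 passed, and 0 had an unadjusted p under 0.05 with all libraries. Without resistant 18 there were 7 with such a p, all lower in resistant libraries (33.3%, against 23.3% of all genes in either direction). Without both libraries of pool 18 there were 2 of the 21, against 2053 of all 11307 genes. With libraries weighted there were 5 of the 21, against 2998 of all 11307 genes. In each of these fits 0 genes of the list passed. By pool, their median differences were -0.12 (pool 17), 0.75 (pool 18) and -0.43 (pool 28), where CDKN1A differed by 0.08, -0.73 and 0.10. In pool 18, 20 of the 21 were higher in the resistant library, 95.2%, against 53.4% of all genes, and in pool 28, 19 were lower, 90.5%, against 50.6%. CCNB1, a mitotic cyclin, had 24.3, 84.6 and 15.7 FPKM in resistant 17, 18 and 28, against 23.7, 24.4 and 20.5 FPKM in controls 17, 18 and 28. AURKB, a mitotic kinase, had 69.8, 129 and 39.4 FPKM in resistant 17, 18 and 28, against 44.5, 61.7 and 35 FPKM in controls 17, 18 and 28, and was the 1 gene of the list with a positive difference in all 3 pools (0.62, adjusted p = 0.568). FOXM1, a transcription factor of mitotic genes, had 4.48 to 8.14 FPKM in resistant and 5.96 to 9.99 FPKM in control libraries, and the phosphatase gene CDC25A 6.16 to 13.2 FPKM in resistant and 6.67 to 7.47 FPKM in control libraries (-0.36 and 0.27, adjusted p = 0.579 and 0.687). The part that cell cycle state plays in the members' values was not tested.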

How the data were processed

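Total RNA of 6 HG3 libraries was compared, 3 fludarabine-resistant and 3 control. Values were deposited by the authors as FPKM, per the file headers, 1 per gene symbol and library, written with decimal commas. The submitters' processing notes name TopHat2 2.0.4, Cufflinks 2.2.1, HTSeq 0.6.1, DESeq2 and hg19; the sources used here do not say which tool made which values, or from which annotation.

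FPKM are not counts, so no count model was fitted. The 11307 genes that 3 or more libraries held at 1 FPKM or above were tested on the log2(FPKM + 1) scale. The test was limma 3.58.1 (R 4.3.3), two-sided, with a mean-variance trend and no block. The fit was also run on simulated data with planted changes larger than any member's difference over the pools. That run does not show how often differences as small as the members' would be found. Errors are SD over 3 libraries unless named SE. From the steps of low values, depth relative to control 17 was 1.04 and 1.26 in controls 18 and 28, and 1.05, 1.09 and 1.31 in resistant 17, 18 and 28; absolute depth is unknown. The labels number the pools in pairs, yet deviations of same-numbered libraries from their group means correlated across genes at 0.148, 0.0892 and -0.0243.

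The members and lists were chosen with earlier results of these data known, so lists are given by counts and medians, with no test. Values in every library are given for CDKN1A and MDM2, for members that differed alike in all 3 pools by at least 0.3 over the pools, and for those whose pools spanned at least 1. Of further lists, MDM4 and up to 4 genes of smallest p each were named; 1 gene is not reported here. Alternatives were other pseudocounts (0.1 and 5), filters, scalings, library weights, the pool as a block, and leaving out each library or pool. Exon overlaps came from GENCODE v29.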

Additional observations from a re-analysis of the deposited data

Results flagged for a closer look

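The differences of 3 genes had opposite signs in different pools, with at least 0.5 on the log2 scale on each side, and each pool has 1 resistant and 1 control library, so the difference between pools was not tested. PLK3 differed by 0.88 (pool 17), -0.89 (pool 18) and 0.11 (pool 28), a span of 1.77. PLK2 differed by -0.04 (pool 17), -1.0 (pool 18) and 0.74 (pool 28), a span of 1.74. CCNG1 differed by -0.29 (pool 17), 0.55 (pool 18) and -0.57 (pool 28), a span of 1.12. Pool 18 held the lowest difference of the polo-like kinase genes and the highest of CCNG1.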

How the results depend on the processing

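No p53 target passed under any alternative run except 1, GADD45A, when libraries were weighted (1 member called, log2 difference 1.19, adjusted p = 0.048). With these weights 301 of all 11307 genes passed, against 4 unweighted. Among them were 2 of the p53 regulators (EP300 and HIPK2) and 1 of the other targets (PLXNB2). With the pool number as a replicate block 0 members and 3 genes passed, and the members' median was -0.03. Leaving out each library or pool gave 0 members, 3 to 18 genes, and a members' median of -0.11 to 0.09. Of the 253 values of single named members under alternatives, 231 kept their sign and their side of the threshold, 1 newly passed and 21 changed sign. With libraries left out, the ranges were -0.40 to 0.18 for CDKN1A, -0.33 to 0.041 for MDM2, -0.11 to 0.60 for TP53I3, -0.44 to 0.15 for CCNG1, -0.65 to 0.096 for TRIAP1, -0.52 to 0.37 for PLK2 and -0.39 to 0.50 for PLK3. They kept their sign but were -2.20 to -0.36 for GDF15, 0.45 to 1.20 for GADD45A, -0.99 to -0.30 for TP53INP1, -0.62 to -0.15 for TNFRSF10B, -1.15 to -0.64 for ZMAT3, 0.66 to 1.24 for PHLDA3, 0.29 to 0.52 for C12orf5 and -0.39 to -0.25 for PPM1D. With weights CDKN1A was 0.16 and PLK2 0.29. Of members past 1 on the log2 scale within a pool, a pseudocount of 5 left 0 higher and 0 lower in pool 17, and 0 higher and 3 lower in pool 18. A pseudocount of 0.1 gave 3 higher in pool 17 and 6 lower in pool 18, and median centring 6 lower in pool 18. Quantile normalization left 1 higher in pool 17 and 0 higher in pool 28. The alternatives for counts within pools and for the other lists were added after seeing the data. The causes were not tested.

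The deposited FPKM carry no counts, so these values have no counting error beside them. FPKM is scaled to transcript length, so the number of fragments behind genes of low FPKM is not known. Examples are C12orf5, PLK2, EP300, CREBBP and HIPK2.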
